A study of Mus musculus with 5 samples.

Results

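Bone matrix and mineralization genes were read in NT2.5 cells, an established mouse mammary tumour line, and in sub-lines of it with a labelled preference for bone or for liver as the site of metastasis. The genes were taken by symbol: Alpl, Enpp1, Phex and Fam20c act on phosphate, pyrophosphate or matrix phosphorylation, and Postn, Sparc, Sparcl1, Ibsp, Mgp and Prelp encode secreted proteins of the matrix. Every probe set annotated to these 10 symbols alone was used, which gave 16 of the 45101 probe sets on the arrays and covered 9 of the 10 genes. No probe set was annotated to Enpp1, so it is not analysed here. The 5 arrays held RNA of parental cells (labelled wild type, whose site preference is given as bone, liver, lung), of a bone sub-line taken early (passage 3) and at its final passage 6, and of a liver sub-line taken early (passage 1) and at its final passage 3. NT2.5 cells come from a mammary tumour of a mouse with the rat neu gene under the mouse mammary tumour virus promoter, so all 5 samples share this oncogene. Each sub-line is 1 lineage, and its passages stood in for replicates.

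Mineral forms in bone on a collagen scaffold when phosphate is freed and inhibitors of crystal growth are removed. Tissue-nonspecific alkaline phosphatase, the product of Alpl, cleaves pyrophosphate, which Enpp1 makes, while matrix Gla protein, the product of Mgp, keeps soft tissue free of mineral. Fam20c is the secretory-pathway kinase that phosphorylates many secreted proteins, bone sialoprotein (Ibsp) among them. Carcinoma cells that express genes of this kind are described as osteomimetic, which is the reason to read them in a bone-seeking sub-line.

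The labelled cell type was borne out by its markers, since 7 of 8 mammary epithelial markers were at or above 25.1 on each array and the exception, Krt19, was between 1.5 and 3.3. This level, the median of all deposited values, served as the background level here, because the files give no detection calls. A list of 32 genes restricted to other organs, of which 29 had a probe set, had a median of 11.4, with 67.1% of its values under 25.1. Bone passage 6 had the lowest array median (21.9, against 24.6 to 26.4 on the other arrays), which touches the dim genes most. Hepatocyte markers were under 25.1 on all 5 arrays for 5 of 5 genes with a probe set. Of the osteoblast markers, 5 of 7 had a probe set of their own, and 1 or 2 of these were at or above 25.1 on any array.

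At background throughout were Ibsp and Phex, with both of their probe sets under 25.1 on each array. Ibsp, a mineral-binding phosphoprotein made by osteoblasts, had intensities of 16.2 in parental cells, 14.5 and 7.5 at bone passages 3 and 6, and 15.5 and 14.4 at liver passages 1 and 3 for its brighter probe set (1417485_at), and its other probe set lay between 0.2 and 0.7. Phex, a membrane endopeptidase of osteoblasts and osteocytes that limits phosphate loss, was 5.9 in parental cells and between 0.4 and 2.3 on the sub-line arrays for 1 probe set (1421979_at), and 0.8 in parental cells and between 1.5 and 2.1 on the sub-line arrays for the other (1450445_at), so no order is given. Neither gene was above background in the bone sub-line. In all, 5 of the 16 probe sets were at background, the fifth being the dimmest of 3 for Fam20c, and the count was 11 when the 95th percentile of the organ-restricted list (281.4) was taken as the background and 3 with the 25th percentile of all values (6.6). Under that organ-restricted level lay every probe set of Fam20c, Postn and Prelp, besides those of Ibsp and Phex and the dimmest of Sparc. By this stricter bound Fam20c, Postn and Prelp are thus at background on all arrays. The organ-restricted level rests on genes of that list with high intensities here, among them Tnnt2 at 1526 to 2976.

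**Figure D1:**
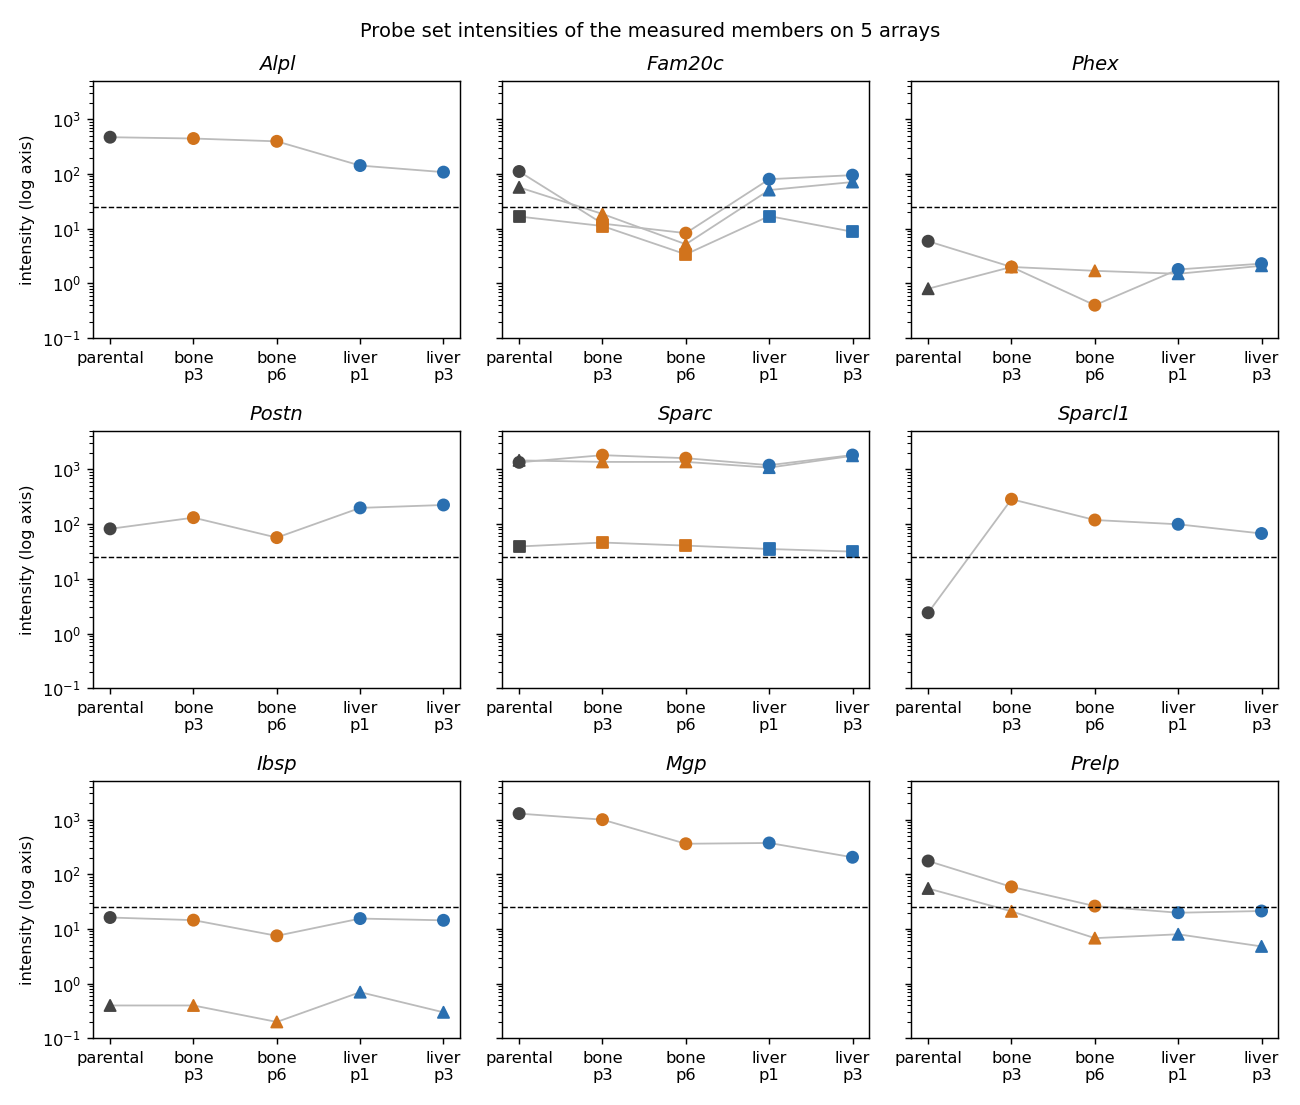
Intensity (log axis) of every probe set of the 9 measured genes on the parental array (grey), bone passages 3 and 6 (orange) and liver passages 1 and 3 (blue); marker shapes separate probe sets of a gene, grey lines join the arrays of a probe set, and the dashed line is the background level of 25.1. Ibsp and Phex lie under the line on all arrays, and the brightest Fam20c probe set drops under it on both bone arrays.

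For the tests, values were converted to log2(intensity + 16), and a gene was read from its probe set with the highest mean log2 value. A gene was tested where its highest intensity reached 25.1, which 12609 of 18193 genes did. Of the members 7 were tested, and Sparcl1 is under 25.1 in parental cells and was tested through the sub-lines, as Fam20c was through the parental and liver arrays. Prelp is under 25.1 in liver and was tested through the parental and bone arrays. A gene was called at a limma adjusted p under 0.05 over all genes tested, with all 5 arrays in 1 fit of 3 lines, in which the single parental array takes its spread from the sub-line passages. Nothing in the labels says that the arrays are separate cultures of a line, so the p-values reflect only how far these samples spread, and that spread may be technical. In these bulk samples, fewer cells that express a gene and less of its RNA per cell cannot be told apart.

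Fam20c was the only member called, and it fell in the bone sub-line. Its brightest probe set (1417688_at) gave an intensity of 111.1 in parental cells, 12.4 and 8.3 at bone passages 3 and 6, and 80.3 and 95.3 at liver passages 1 and 3. Both bone values lay under the background level, and the bone arrays did not overlap with the others. The liver values lay within the range of the organ-restricted gene Hcrt (64.6 to 102.3) and the parental value little above it. Expression of Fam20c outside bone is therefore not certain. On the log2 scale the difference was -2.27 ± 0.24 (SE; n = 2 bone passages and 1 parental array) for bone against parental (limma adjusted p = 0.0492). For bone against liver it was -1.98 ± 0.19 (n = 2 passages each; limma adjusted p = 0.0437). With the bone values set to the background level, Fam20c was at least 4.43-fold lower in bone than in parental cells and at least 3.49-fold lower than in the liver sub-line. Between liver and parental the difference was -0.30 ± 0.24 (limma adjusted p = 0.843).

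The other probe sets of Fam20c bear on how firm this is. The next brightest (1443827_x_at) was 57 in parental cells, 18.6 and 5.2 in bone, and 50.9 and 71.3 in liver, so its bone arrays were again the lowest. Tested as a unit of its own among 22624 probe sets, it gave -1.43 ± 0.35 against parental (limma adjusted p = 0.309) and -1.50 ± 0.28 against liver (limma adjusted p = 0.121), and did not pass. The dimmest (1457648_x_at) was under 25.1 on all arrays. Limma no longer called Fam20c in either comparison without liver passage 1 (adjusted p = 0.114 against parental and 0.182 against liver) or without liver passage 3 (0.111 and 0.143), in place of 0.0492 and 0.0437. The call against parental cells also rests on how a gene's probe set was picked: by mean linear intensity, the rule of a first fit, the adjusted p was 0.0515 against parental, which does not pass, and 0.0453 against liver. The mean log2 rule was adopted after the results of that first fit had been seen, so the parental call is at the threshold and depends on a choice made with its outcome known. Over 15 settings for bone against liver, the reported value included, the adjusted p ran from 0.00555 to 0.185, with 9 of them called, and over 14 settings for bone against parental it ran from 0.00683 to 0.19, with 7 called. The direction was the same in all of these. Beside this, the summed intensity of 8 fibroblast markers was 160.2 and 141.4 in bone against 231.8 in parental cells and 227 and 231.9 in liver, with 2 of 8 at or above 25.1 on each array. Of these 2, Pdgfra was 71.6 and 48.8 in bone and 124.5 to 138.3 elsewhere, whereas Col1a2 was 52.2 and 38.1 in bone and 34.4 to 46.7 elsewhere. The other 6 were under 25.1 on all arrays. The part of such cells in the Fam20c result was not tested.

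Alkaline phosphatase had its lowest values in the liver sub-line. Alpl had an intensity of 470.3 in parental cells, 444.9 and 395.2 at bone passages 3 and 6, and 142.6 and 108.1 at liver passages 1 and 3 (1423611_at, its only probe set). Both liver arrays lay under every other array by at least 2-fold, and the bone arrays were near the parental array. Bone against liver gave a log2 difference of 1.63 ± 0.21 (limma adjusted p = 0.0673) and the value was -1.79 ± 0.25 for liver against parental (limma adjusted p = 0.174), so neither passed. For bone against parental it was -0.16 ± 0.25 (limma adjusted p = 0.94). The higher Alpl of bone against liver thus goes with a lower liver level, and no bone value exceeded that of the parental cells. The bone against liver difference was called in 4 of 15 settings, with a pseudocount of 64 (limma adjusted p = 0.0452), with median centring over the tested genes (0.0345) or over all probe sets (0.013), and with the stage as a block (0.0178), and the adjusted p reached 0.21 in the others.

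**Figure D2:**
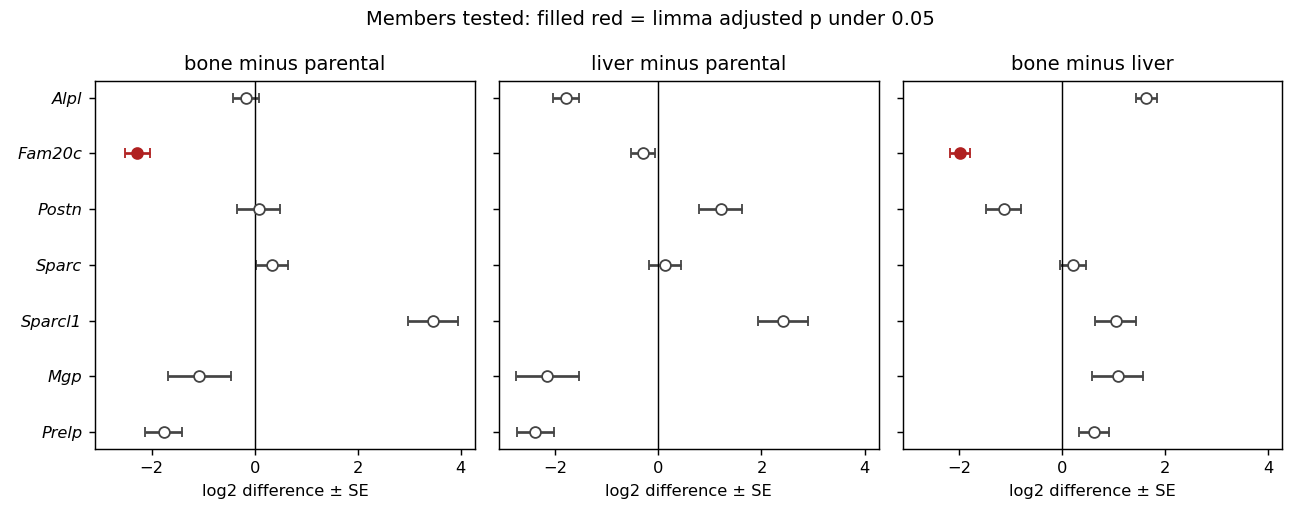
Log2 difference with its SE (horizontal bars) for the 7 members tested, in panels for bone minus parental, liver minus parental and bone minus liver; n is 2 passages per sub-line and 1 parental array. Filled red points passed a limma adjusted p under 0.05, which Fam20c did in the first and last panels, at -2.27 and -1.98.

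Prelp, a leucine-rich repeat protein that anchors basement membrane to connective tissue, was lower in all sub-line arrays than in parental cells. It was at 174.7 in parental cells, 58.8 and 26.2 at bone passages 3 and 6, and 19.8 and 21.3 at liver passages 1 and 3 (1416321_s_at). Its second probe set (1416322_at) kept the parental array highest, at 55, with 21 and 6.8 in bone and 8 and 4.8 in liver. Its log2 difference was -2.38 ± 0.36 for liver against parental (limma adjusted p = 0.194) and -1.76 ± 0.36 for bone against parental (limma adjusted p = 0.231), neither past the threshold. The liver values lay under the background level, which makes Prelp at least 6.96-fold lower there. Both differences rest on the lone parental array. For liver against parental the call was made in 3 of 14 settings. These were median centring over all probe sets (limma adjusted p = 0.0254) and either bone passage left out (log2 difference -2.38). For bone against parental it was made in 1 of 14, without bone passage 3 (-2.18).

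Sparcl1, the SPARC-like protein also called hevin, was lowest in parental cells. It was at 2.4 in parental cells, 285.4 and 118.9 at bone passages 3 and 6, and 99.3 and 67.4 at liver passages 1 and 3 (1416114_at, its only probe set). The parental array was under background and every sub-line array above it. Against the background level the difference was at least 7.34-fold for bone and at least 3.26-fold for liver. Fitted, the log2 difference was 3.45 ± 0.48 for bone against parental (limma adjusted p = 0.0891) and 2.41 ± 0.48 for liver against parental (limma adjusted p = 0.267), neither past the threshold, and its size depends on the pseudocount (5.77 and 4.61 with a pseudocount of 1). It passed for bone with median centring over the tested genes (limma adjusted p = 0.0386) or over all probe sets (0.00683). It also passed for bone and for liver when either bone passage was left out. The bone against parental difference was then 2.87 without passage 3 and 4.03 without passage 6. Both bone arrays were above both liver arrays, with a mean difference of 1.04 ± 0.40 on the log2 scale (limma adjusted p = 0.325). Sparcl1 is also made by endothelial cells, of whose 7 markers Pecam1, Cdh5, Tek, Emcn and Vwf were under 25.1 on all arrays, and whose summed intensity was 139 in parental cells, 184.1 and 133.2 in bone and 116.3 and 165.7 in liver. Of the other 2, Kdr was 54.8 in parental cells, 75.2 and 41 in bone and 43.8 and 54 in liver, and Eng was 45.3 in parental cells, 50 and 58.7 in bone and 21.2 and 66.6 in liver. The part of endothelial cells in the Sparcl1 values was not tested.

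Sparc itself, a collagen-binding glycoprotein abundant in bone, was bright everywhere and differed little. Its intensity was 1346 in parental cells, 1821 and 1604 at bone passages 3 and 6, and 1195 and 1832 at liver passages 1 and 3 (1416589_at). The liver passages spanned the values of all other arrays. The log2 difference was 0.34 ± 0.31 for bone against parental (limma adjusted p = 0.871), 0.14 ± 0.31 for liver against parental (0.954) and 0.21 ± 0.25 for bone against liver (0.745). A second bright probe set (1448392_at) gave -0.09 ± 0.32, -0.08 ± 0.32 and -0.01 ± 0.26 in the same order, so no direction is given for Sparc. Its dimmest probe set (1458204_at) lay between 31.5 and 46.1.

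Mgp was highest in parental cells and lower at the later passage of each sub-line. It was at 1284 in parental cells, 995.4 and 361 at bone passages 3 and 6, and 373.1 and 204.4 at liver passages 1 and 3 (1448416_at, its only probe set). Bone passage 6 lay within the range of the liver arrays, so the sub-lines overlap. The log2 difference was -2.15 ± 0.61 for liver against parental (limma adjusted p = 0.486), -1.07 ± 0.61 for bone against parental (0.734) and 1.08 ± 0.50 for bone against liver (0.39), none past the threshold. Leaving out bone passage 3 gave -1.79 for bone against parental and 0.36 for bone against liver, and leaving out bone passage 6 gave -0.36 and 1.79.

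Postn, which encodes periostin, a matricellular protein of periosteum and tumour stroma, was highest in the liver sub-line. It was at 82 in parental cells, 131.4 and 56.7 at bone passages 3 and 6, and 198 and 223.8 at liver passages 1 and 3 (1423606_at, its only probe set). The parental value lay between the bone values. The log2 difference was 1.21 ± 0.42 for liver against parental (limma adjusted p = 0.59), -1.13 ± 0.34 for bone against liver (0.237) and 0.08 ± 0.42 for bone against parental (0.983), none past the threshold. Bone against liver was -1.64 and called without bone passage 3 (limma adjusted p = 0.0474), and -0.62 without bone passage 6. Bone against parental turned from -0.43 to 0.59 depending on whether passage 3 or passage 6 was left out. The summed intensity of 7 macrophage markers was also highest in the liver arrays. It was 634.2 and 491.7 there, against 218.8 in parental cells and 314.1 and 269 in bone. At or above 25.1 were 6 and 4 of the 7 in liver, 5 in parental cells and 5 and 3 in bone. Csf1r was 168.7 and 220 in liver against 67.6 in parental cells and 89.3 and 107.3 in bone, and Cd68 was 173.1 and 172 in liver against 52.1 in parental cells and 103.2 and 74.8 in bone. C1qa was 56.1 at liver passage 1 and 1.2 or less elsewhere. Lyz2 was 140.4 and 42.2 in liver against 25.5 in parental cells and 26.5 and 22.7 in bone. Fcgr1 was 20.3 and 22.7 in liver against 32.3 in parental cells and 38.7 and 17.5 in bone. Adgre1 was 49.9 and 27.6 in liver against 31.8 in parental cells and 42.5 and 36.1 in bone. Ptprc was 25.7 and 6.1 in liver against 8.6 in parental cells and 12.9 and 9.4 in bone. Adgre1 and Ptprc were thus lowest of all arrays at liver passage 3. The summed intensity of 8 fibroblast markers was 227 and 231.9 in liver, against 231.8 in parental cells and 160.2 and 141.4 in bone. That of 5 stellate and pericyte markers was 171.5 and 173.2 in liver, against 179.7 in parental cells and 147.7 and 127 in bone. Neither sum was higher in liver than in parental cells by more than 231.9 against 231.8. The part of these cell types in the Postn values was not tested.

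Counted together, limma called 1 of the 7 tested members for bone against parental, where 0.135% of all genes tested were called (0.0714% higher and 0.0634% lower), 0 for liver against parental (background 0.0159%) and 1 for bone against liver (background 0.19%, 0.0952% in each direction), and each call was Fam20c, lower in bone. For liver against parental, where limma called 0 members, 5 of the 7 had an unadjusted p under 0.05. That share of members came to 3 for bone against parental and 4 for bone against liver, beside backgrounds of 7.49%, 8.17% and 14.1% in the same order. Differences of 2-fold or more for each pairing of their arrays were found for Sparcl1 (higher) and Fam20c and Prelp (lower) in bone against parental, beside 2.14% of all genes (0.999% higher and 1.14% lower). For liver against parental these were Sparcl1 and Postn (higher) and Alpl, Mgp and Prelp (lower), beside 1.8% (0.857% higher and 0.944% lower). For bone against liver they were Alpl (higher) and Fam20c (lower), beside 1.06% (0.444% higher and 0.619% lower). The members' median log2 difference was -0.16, -0.30 and 0.62 for the 3 comparisons, against -0.019, 0.014 and -0.023 over all genes tested. The members were chosen with results of these data known, and comparisons with the parental cells share that array, so the counts describe them and no more. Without bone passage 3 the members called were 3, 2 and 2 for bone against parental, liver against parental and bone against liver, without bone passage 6 they were 2, 2 and 1, and without either liver passage they were 0 in each.

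Between single arrays there is no replicate check, and only values are given. From bone passage 3 to 6, Mgp, Sparcl1 and Postn were at least 2-fold lower (2.68-fold, 2.23-fold and 2.03-fold), and 0 of 7 members were 2-fold higher, where 2.07% of all genes were lower and 0.357% higher by that much (2.43% in all). From liver passage 1 to 3 0 of 7 members were 2-fold apart, beside 2.81% of all genes (1.68% higher and 1.13% lower), and the differences that came closest were -0.82 for Mgp and 0.61 for Sparc on the log2 scale. Both sub-lines were sampled at passage 3. There Mgp (4.59-fold), Alpl (3.71-fold), Sparcl1 (3.61-fold) and Prelp were higher in bone by 2-fold or more, beside 2.24% of all genes, and Fam20c was lower, beside 2.36% (4.59% in all). Prelp at liver passage 3 and Fam20c at bone passage 3 were under background, so their ratios of intensity are bounds, at least 2.34-fold higher and at least 3.80-fold lower. Between the final passages, bone 6 and liver 3, Alpl was 3.31-fold higher, Fam20c at least 3.80-fold lower and Postn 3.3-fold lower, whereas Mgp was 1.71-fold and Sparcl1 1.62-fold higher, where 4.64% of all genes were 2-fold apart (1.14% higher and 3.5% lower).

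**Figure D3:**
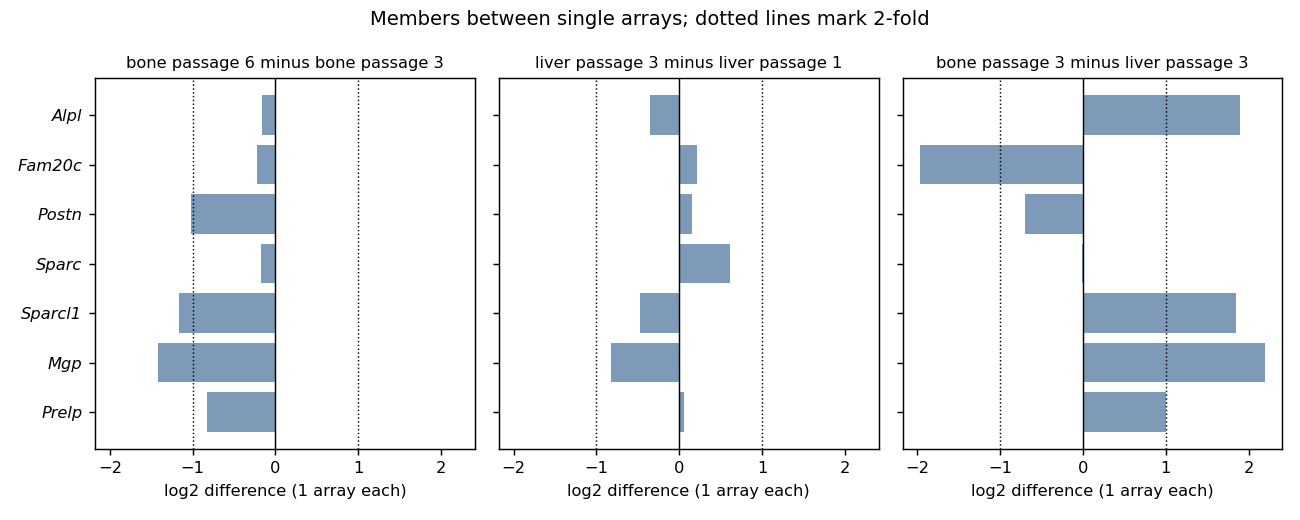
Log2 difference of the 7 tested members between single arrays: bone passage 6 minus passage 3, liver passage 3 minus passage 1, and bone minus liver at passage 3; dotted lines mark 2-fold, and there are no error bars because each bar compares 1 array with 1 array. Mgp, Sparcl1 and Postn pass the lower line in the first panel, and no bar reaches a line in the middle panel.

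Other genes of bone formation were read from 9 lists with 81 genes, of which 67 had a probe set of their own and 42 were tested. Limma called 1 of the 42 higher and 0 lower for bone against parental (0.135% of all genes tested were called), 0 in either direction for liver against parental (0.0159%), and 1 higher and 0 lower for bone against liver (0.19%). At an unadjusted p under 0.05 were 12, 6 and 8 of the 42, beside 8.17%, 7.49% and 14.1% of all genes in the limma fit. Both calls were Nqo1, a quinone reductase that can reduce vitamin K and was listed with the Gla proteins for that reason. The medians of the 42 genes were -0.17, 0.05 and -0.06 on the log2 scale. The list of bone collagens and their cross-linking enzymes had 9 tested genes, of which limma called 0 in each comparison. Its median log2 difference was -0.76 for bone against parental, -0.42 for liver against parental and -0.26 for bone against liver. At an unadjusted p under 0.05 in the limma fit were 6, 3 and 1 of the 9, in that order. Col5a2 and P4ha2 reached 25.1 in parental cells alone (25.4 and 33.7), so their lower sub-line values are partly set by the filter. Sp7, the osteoblast transcription factor osterix, was 34.4 in parental cells, 58.4 and 34.9 in bone and 34.3 and 56.5 in liver. In the organ-restricted list 67.1% of values were under 25.1, but Omp was 20.8 to 53.3 and Hcrt 64.6 to 102.3. Sp7 is therefore not read as expressed here. The same limit holds for members at such intensities, among them Fam20c in liver (80.3 and 95.3), Postn in parental cells (82) and Prelp in bone (58.8 and 26.2). Col1a1, a chain of bone collagen, was 34.3 in parental cells, 15.4 and 15.6 in bone and 28.1 and 16.1 in liver, and Col1a2, its partner chain, lay between 34.4 and 52.2. The phosphoprotein genes Dmp1, Mepe and Dspp, relatives of Ibsp, were under 25.1 on all arrays, as was the osteocyte gene Sost. No probe set was annotated to Runx2, Spp1 or Bglap alone, and they are not analysed here.

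Of the genes of these lists that were 2-fold or more apart for each pairing of arrays, Nqo1 alone passed the test, at 8.3 in parental cells, 174.3 and 156.8 in bone and 18.4 and 14.3 in liver (log2 difference 2.90 against parental, limma adjusted p = 0.0237, and 2.49 against liver, 0.0342). Its parental and liver values were under background, so it was tested through the bone arrays, and against the background level it was at least 6.59-fold higher in bone than in either. The pyrophosphatase gene Enpp3, a relative of Enpp1, was 69.6 in parental cells, 202.6 and 206.8 in bone and 82.2 and 93 in liver, with log2 differences of 1.37 against parental (limma adjusted p = 0.123) and 1.09 against liver (0.103). Nt5e, the ecto-nucleotidase that makes adenosine downstream of Enpp1, was 281.6 in parental cells, 444.9 and 535.9 in bone and 751.5 and 675 in liver, with 1.29 for liver against parental (limma adjusted p = 0.221). Ccn2, a matricellular growth factor gene, was 0.9 in parental cells and 23.6 and 31.3 in bone, with 1.5 and 16.1 in liver. It was above background at bone passage 6 alone and was tested through that array, with 1.36 against parental (limma adjusted p = 0.38). The collagen prolyl hydroxylase P4ha1 was 727.4 in parental cells, 307 and 300.7 in bone and 337.9 and 457.6 in liver. P4ha2 was 33.7 in parental cells and between 1.1 and 7.3 in all sub-line arrays, so it was tested through the parental array alone. Msx1, a homeobox gene of skeletal and tooth development, was 146.3 in parental cells, 81.3 and 72.3 in bone and 185 and 194.3 in liver. Its limma adjusted p for bone against liver was 0.0931. Mme, a membrane endopeptidase of the family of Phex, was 849 in parental cells, 524.5 and 106.4 in bone and 1101 and 1461 in liver. Its limma adjusted p for bone against liver was 0.216, and its bone passages lay far apart. The kinase relative Fam20b, which acts on proteoglycan linkers, lay between 563.8 and 671.7 on all 5 arrays.

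The tested genes with a profile most like that of a member were found by the Euclidean distance between log2 profiles over the 5 arrays, each centred on its own mean. Closest to Fam20c was Csgalnact1, a chondroitin sulfate synthesis enzyme (distance 0.49), at 124.9 in parental cells, 23.9 and 13.6 in bone and 127 and 92.8 in liver, followed by Pof1b (0.59) and the zinc transporter Slc39a8 (0.62). Closest to Alpl was Palld, an actin-binding scaffold (0.34), at 1144 or more in parental and bone arrays and 482 and 315 in liver, followed by the kallikrein Klk6 (0.48) and Gpx2 (0.48). Closest to Postn was Ccn4, a Wnt-induced matricellular gene (0.23), at 30 in parental cells, 49.1 and 22.4 in bone and 76.4 and 92.1 in liver, followed by Ifih1 (0.31) and Fhit (0.33). With 5 arrays, such likeness is a description of these samples.

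The promoter windows of the members, of 300 bases with 250 before and 50 after the start site, were read from RefSeq (GRCm38.p6). There were 10 windows for 8 of the 10 genes. They are shown for the called gene, for the gene with the largest positive difference between the sub-lines and for a gene at background, with each CpG dinucleotide in capitals. The Fam20c window (chr5:138754831-138755130, plus strand) has 47 CpG, more than 98.6% of 32851 such windows, which have a median of 7. Alpl has an upstream start with 26 CpG (chr4:137796335-137796634, minus strand) and a downstream start with 4 (chr4:137766426-137766725, minus strand), and its probe set is not assigned to either here. The Ibsp window (chr5:104299037-104299336, plus strand) has 5.
Fam20c: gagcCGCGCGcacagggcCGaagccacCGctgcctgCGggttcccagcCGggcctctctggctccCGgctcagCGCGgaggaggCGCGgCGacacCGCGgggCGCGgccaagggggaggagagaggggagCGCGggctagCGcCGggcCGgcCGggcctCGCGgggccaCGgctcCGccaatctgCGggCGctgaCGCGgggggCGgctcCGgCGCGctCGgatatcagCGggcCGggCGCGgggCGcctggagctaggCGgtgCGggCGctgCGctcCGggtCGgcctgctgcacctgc
Alpl upstream: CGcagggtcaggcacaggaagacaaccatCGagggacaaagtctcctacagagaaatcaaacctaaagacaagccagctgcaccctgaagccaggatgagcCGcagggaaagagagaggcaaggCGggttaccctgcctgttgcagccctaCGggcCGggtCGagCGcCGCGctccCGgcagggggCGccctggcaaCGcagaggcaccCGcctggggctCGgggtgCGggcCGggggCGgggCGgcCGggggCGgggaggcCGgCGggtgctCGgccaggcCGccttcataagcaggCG
Alpl downstream: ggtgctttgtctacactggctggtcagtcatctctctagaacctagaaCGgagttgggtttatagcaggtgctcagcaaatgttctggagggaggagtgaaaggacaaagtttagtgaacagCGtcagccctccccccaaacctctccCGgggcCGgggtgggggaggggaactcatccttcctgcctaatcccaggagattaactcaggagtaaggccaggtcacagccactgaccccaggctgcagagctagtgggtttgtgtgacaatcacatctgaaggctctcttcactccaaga
Ibsp: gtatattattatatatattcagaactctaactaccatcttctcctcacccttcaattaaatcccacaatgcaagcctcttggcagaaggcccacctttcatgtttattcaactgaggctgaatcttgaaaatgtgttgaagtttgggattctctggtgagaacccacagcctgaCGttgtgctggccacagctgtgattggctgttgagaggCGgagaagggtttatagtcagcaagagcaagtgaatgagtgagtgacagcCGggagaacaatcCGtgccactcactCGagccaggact

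No relation between CpG count and intensity was computed, and Mgp and Sparcl1 have no window. Sparc, bright on all arrays, had 4 CpG in its window, as did Phex, which was at background, and Prelp had 7. The RUNX core TGTGGT, on either strand, was found once in the Sparc window and once in that of Enpp1, and in none of the other 8 windows, beside 16.8% of all windows. The TATA box sequence TATAAA was sought on either strand at any place in the window. It was found in the Ibsp window, the downstream Alpl window and the downstream of both Postn windows, beside 13.6%. In the downstream Alpl window it lies far before the start site, so it is a match to the sequence only. The GC box GGGCGG was found in Fam20c, Enpp1 and the upstream Alpl window, where it was found 3 times, beside 35.7%.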

How the data were processed

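Total RNA (5 ug per sample, per the labels' protocols) was purified on RNeasy columns, made into biotin-labelled cRNA and hybridised to 1-colour Affymetrix mouse arrays. The authors deposited linear intensities, 1 for each probe set; the submitters' processing notes name RMA without a version. The deposited intensities are not on RMA's log2 scale, and the mean of each array, with 2% trimmed from either end, was 150, so no further scaling was applied. Gene symbols came from the platform annotation, checked by gene identifier against RefSeq with 0 changes. Probe sets with several genes (932) or none listed (9211) were left out, as were control probe sets.

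The members, the gene lists and the naming rule (all members, list genes called or 2-fold apart for each pairing up to 6 per comparison, 6 genes whatever their values, and 3 nearest profiles) were chosen with earlier results of these data known. Limma 3.58.1 in R 4.3.3 (lmFit, eBayes; 2 residual degrees of freedom, prior 4.2) tested log2(intensity + 16), with Benjamini-Hochberg adjustment. A fold change on this scale understates dim genes. An "at least" fold sets each dim array to 25.1 or its own value, whichever is higher, and compares means of log2 intensity. A first fit picked a gene's probe set by mean linear intensity and centred medians over all probe sets. After its results had been seen, these were replaced by the mean log2 value, the earlier processing of these data, and by centring over the genes tested; both former settings were added as alternatives. The fit was tested on simulated data. Other alternatives were the pseudocount, the filter, normalization, the choice of probe set, the stage as a block, left-out arrays, a 3-fold threshold and other background levels. With 5 arrays, their number limits the precision.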

Additional observations from a re-analysis of the deposited data

Results flagged for a closer look

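Fam20c differed between the sub-lines in its change from the parental cells. Both changes use the same parental array, which drops out of the difference, so its test is that of bone against liver, a log2 difference of -1.98 (limma adjusted p = 0.0437; lower in both bone arrays than in both liver arrays). The adjusted p was 0.0453 under the probe set rule of the first fit and ran from 0.00555 to 0.185 over 15 settings.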

How the results depend on the processing

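Of 280 values of tested members under an alternative, 248 kept their direction and their side of the threshold, 13 lost the call, each of them for Fam20c, 15 gained it and 4 turned their direction, with 0 of these 4 called. Fam20c lost both calls with a pseudocount of 1 or 64, no filter, averaged probe sets or either liver passage left out, and the call against parental (adjusted p = 0.0515) with the probe set picked by mean linear intensity. That setting and median centring over all probe sets were those of a first fit, and they became alternatives after its results had been seen. Turned were Postn for bone against parental without bone passage 3 (-0.43), and Sparc for liver against parental with averaged probe sets (-0.034) and without liver passage 3 (-0.17) and for bone against liver without liver passage 1 (-0.10).

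Limma called 17, 2 and 24 genes in all for bone against parental, liver against parental and bone against liver. With the probe set by mean linear intensity these were 13, 2 and 21. They were 1, 1 and 0 with a pseudocount of 1 (1581 at an unadjusted p under 0.05 for the last) and 1, 1 and 0 with no filter (2154). Median centring gave 37, 6 and 61 over the genes tested and 98, 29 and 129 over all probe sets. With every probe set as a unit the first 2 were 28 and 7, with averaged probe sets the first and last were 9 and 15, and with a pseudocount of 64 the count for liver against parental was 5. Without a bone passage they were 54 to 61, 44 and 66 to 89, and without a liver passage 8, 0 and 0, where limma's unadjusted p was under 0.05 for 892 to 1238 genes in liver against parental and 1323 to 2022 in bone against liver. The stage as a replicate block over the 4 sub-line arrays gave 161 calls for bone against liver, with Alpl (adjusted p = 0.0178) and Fam20c among them. The stage differences of the sub-lines correlated at 0.0967 across the 12609 genes, which are not independent replicates, and the labels pair no samples.

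Genes 2-fold or more apart for each pairing of arrays numbered 270, 227 and 134, and became 91, 59 and 36 at 3-fold. With an array of the lines compared left out they were 553 to 587 and 491 to 568, and for bone against liver 311 to 325 without a bone passage and 256 to 393 without a liver passage. Probe sets of the members at background were 5, or 11 and 3 with the other background levels. Some of these shifts follow from the definitions. A 3-fold threshold can only lower the count, an array left out leaves fewer pairs to pass, and a higher background level can only raise the number at background. The causes of the other shifts were not tested.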
